A study of Canis lupus familiaris with 8 samples.

Results

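EPHA3 is a cell surface receptor for ephrin-A ligands, and its RNA was followed here in the mitral valve leaflets of 8 dogs. All probe sets whose platform annotation names EPHA3 and no other gene were taken. There was 1 such probe set, among 10549 that carry a single gene symbol (6540 genes) and 23836 in all apart from array controls. EPHA3 was chosen with its difference between affected and control leaflets already known, so that difference is described below without a test. The series compared the anterior leaflet of 4 control dogs, all beagle crosses, with that of 4 dogs with degenerative mitral valve disease, which thickens and distorts the leaflets of many older small dogs. The diseased leaflets came from a Lhasa apso (affected 1), a Dachshund (affected 3) and a pair of Miniature poodles (affected 2 and affected 4), so breed and disease cannot be told apart. No drug or other treatment is named for either group, and neither ages nor sexes are given in the sources used here. Each dog gave 1 Affymetrix array of leaflet RNA, and in such bulk RNA more cells that carry EPHA3 and more EPHA3 RNA per cell cannot be told apart.

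Eph receptors form a large family of receptor tyrosine kinases whose ligands, the ephrins, are themselves held on the surface of neighbouring cells. Contact between cells therefore signals into both of them, and the usual outcome is a change in adhesion, shape or movement. EphA receptors mostly bind ephrin-A ligands, which are anchored to the membrane by a lipid, and EphB receptors mostly bind the transmembrane ephrin-B ligands. In the embryonic heart EPHA3 is found in the mesenchyme of the endocardial cushions, the swellings from which the atrioventricular valves form, and mice without it have cushion defects.

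The precision of every value was limited by the number of arrays. Median signals ranged from 124 to 191 over the arrays. The array of control 2 stood apart from the others, with a median correlation of 0.802 with the other 7 against 0.875 to 0.904 for each of the rest (log2 signals over 14705 tested probe sets). It also had the highest summed signal of 13 heart muscle markers, 272491, and the lowest of 12 macrophage and monocyte markers, 1219. Of 14 listed markers of valve interstitial cells 7 were named on the array, among them COL1A1, COL1A2, COL3A1, DCN and VIM. All 7 passed the filter on dim probe sets. So did all 13 named heart muscle markers, and 5438 of all 6540 named genes had a probe set that passed. Passing the filter therefore cannot check the leaflet label.

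EPHA3 had a higher signal in every affected leaflet than in any control leaflet. The signals of the control dogs were 307 in control 1, 113 in control 2, 177 in control 3 and 157 in control 4. Those of the affected dogs were 592 in affected 1, 616 in affected 2, 710 in affected 3 and 455 in affected 4. The lowest affected dog, a Miniature poodle, lay 1.48 times above the highest control (0.57 on the log2 scale, and 1.36 without control 1), and over the 16 pairs of an affected and a control dog the ratio ran from 1.48 to 6.28. No value was near the floor of 34.2 below which signals were treated as equal. On every array EPHA3 was above the 40th percentile of that array, the limit used to call a probe set bright enough to test, although control 2 was close to it (113 against 99.0).

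On the log2 scale EPHA3 averaged 7.46 ± 0.60 (SD, n = 4) in control leaflets and 9.19 ± 0.27 (SD, n = 4) in affected leaflets. The difference of 1.73, with a limma standard error of 0.32, is a ratio of geometric means of 3.33. Control dogs were spread more widely, from lowest to highest by a factor of 2.71, than affected dogs, by a factor of 1.56. Among controls the spread came mainly from control 1, which was high, and control 2, which was low. Without control 1 the difference was 2.00 and without control 2 it was 1.52, and these were the extremes when each dog was left out in turn. The pair of Miniature poodles, at 616 and 455, lay on either side of the Lhasa apso at 592. With only 1 or 2 affected dogs of a breed, and no breed in both groups, an effect of breed was not tested. No probe set in the whole table passed limma at an adjusted p of 0.05 (0 of 14705, or 0%, with a smallest adjusted p of 0.238), and 1151, or 7.83%, had an unadjusted p under 0.05. The groups did not overlap for 685 of these probe sets, or 4.66%, of which 345, or 2.35%, were higher in affected dogs, as EPHA3 was. Since EPHA3 was picked from this contrast, nothing is read from its place among them.

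**Figure D1:**
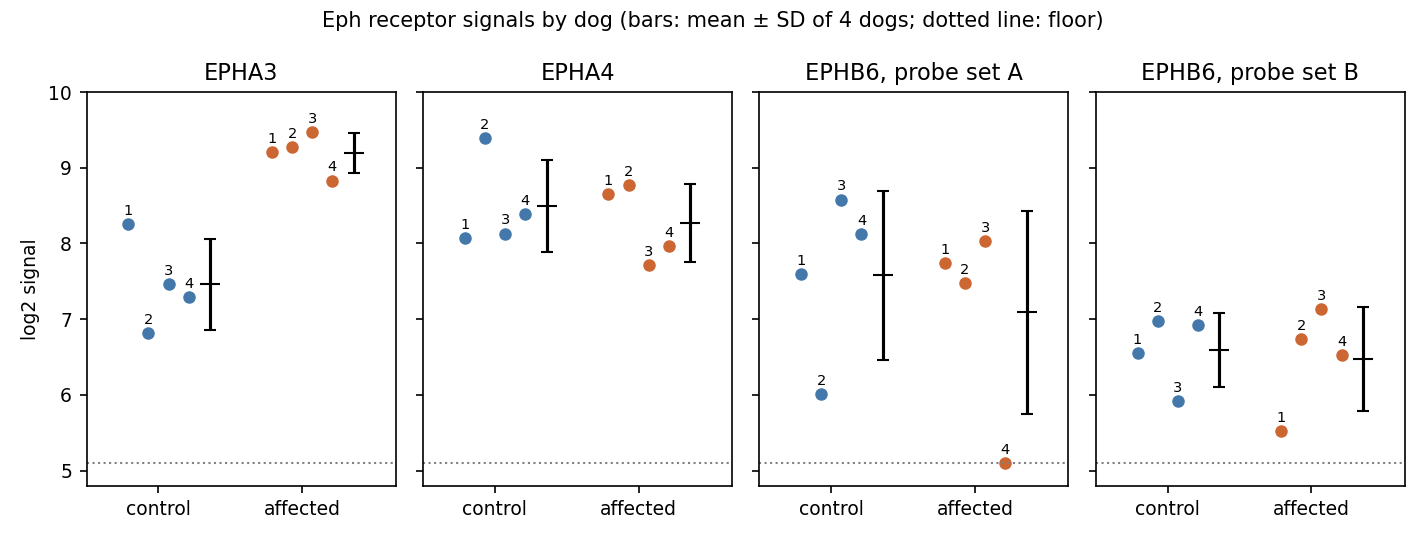
Log2 signal (vertical axis) of EPHA3, EPHA4 and both probe sets of EPHB6 in each dog, with the dog's number above its point, the mean and SD of 4 dogs as a bar beside each group and the floor of 5.10 as a dotted line. For EPHA3 the affected dogs (8.83 to 9.47) lie above the controls (6.82 to 8.26), while in the other 3 panels the groups overlap.

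The EPHA3 difference changed little with the way the signals were processed. It was 1.72 after quantile normalization, 1.66 after median centring, 1.64 with a pseudocount of 16 in place of the floor and 1.60 with array weights. The gap between the lowest affected and the highest control dog stayed above 0 in each of these, at its smallest 0.43 on the log2 scale after median centring. Under a stricter filter, which asks for 6 of 8 arrays above the 60th percentile, EPHA3 was not tested, since it reached that level on 5 arrays.

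**Figure D2:**
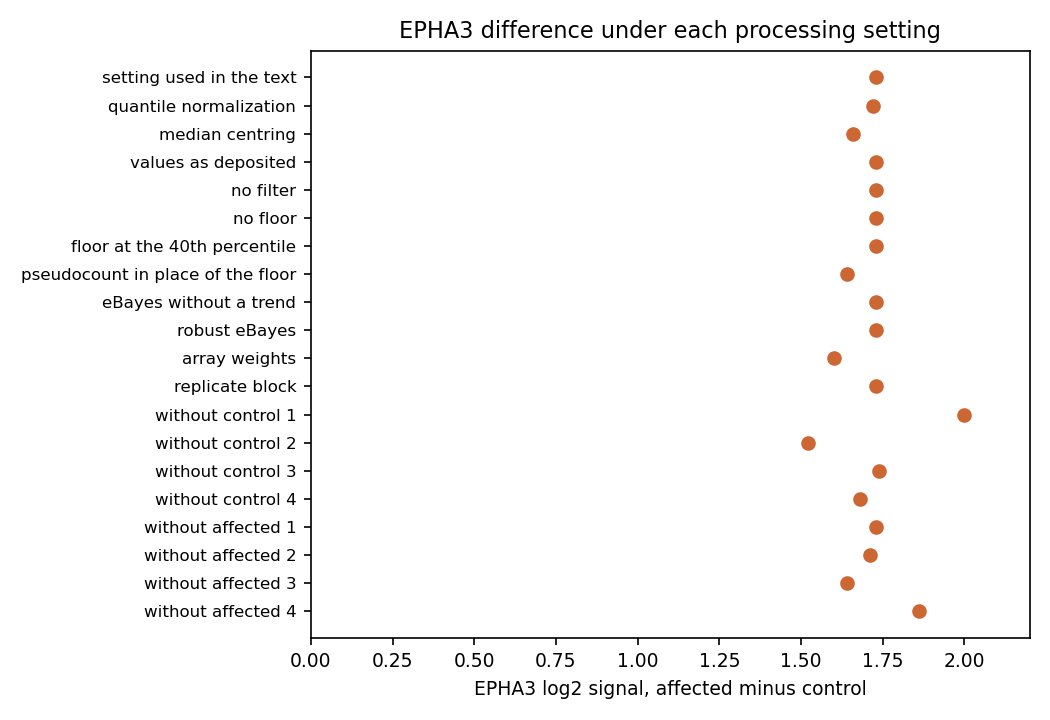
Difference in EPHA3 log2 signal between affected and control dogs (horizontal axis) under the setting used in the text, 11 other processing settings and with each dog left out. Every point lies between 1.52 and 2.00, with the extremes where control 2 and control 1 are left out.

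Few relatives of EPHA3 could be set beside it. Of 22 genes for Eph receptors and ephrins, 4 were named on the array: EPHA3 and EPHA4 of 9 EphA receptors, and EPHB1 and EPHB6 of 5 EphB receptors. None of the 5 ephrin-A and 3 ephrin-B genes was among the named probe sets, so the ligands of EPHA3 were not analysed here. Besides EPHA3 the family had 4 probe sets, of which 3 were tested. None of the 3 passed limma over all tested probe sets, against 0% of all, or had an unadjusted p under 0.05, against 7.83%. In none of the 4 did the groups separate, against 4.66% of all tested probe sets. With so few probe sets these counts say little about the family.

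EPHA4, a receptor that binds ligands of both classes, had signals of 269, 669, 280 and 335 in controls 1 to 4 and of 401, 435, 211 and 249 in affected 1 to 4. The groups overlapped throughout, with control 2 highest of all 8 dogs, where it was lowest for EPHA3. The log2 difference was -0.22 ± 0.37 (SE, adjusted p = 0.882 in limma), and it turned to 0.08 without control 2.

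EPHB6, an Eph receptor whose kinase domain is inactive, had a pair of probe sets. The probe set with the higher mean signal gave 194, 64.3, 383 and 277 in controls and 214, 179, 261 and 18.2 in affected dogs, with affected 4 under the floor. Its log2 difference was -0.49 ± 0.71 (SE, adjusted p = 0.865 in limma), and without affected 4 it was 0.18. The other probe set gave 93.7, 125, 60.7 and 121 in controls and 45.7, 107, 140 and 91.7 in affected dogs, a log2 difference of -0.11 ± 0.43 (SE, adjusted p = 0.956 in limma) that turned to 0.21 without affected 1. The 2 probe sets did not order the dogs alike: affected 4 was lowest on the first and affected 1 on the second. EPHB1 was under the floor in all 4 affected dogs and in 3 of 4 controls, with control 3 at 54.0, and was too dim to test on every array. Whether the EPHA3 difference exceeds those of EPHA4 and EPHB6 was not tested, because EPHA3 was chosen for its size.

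Proteins that carry Eph signals into the cell were looked at as a list of 41 genes, of which 20 were named and 19 bright enough to test. Of the 19, 11 were higher and 8 lower in affected dogs, the median difference was 0.09 (log2), and 0 passed limma over all probe sets. Over the 5438 genes with a tested probe set the median was -0.006 and 49.5% were higher. An unadjusted p under 0.05 was reached by 4 of the 19, 3 higher and 1 lower, against 8.72% of all genes. The groups did not separate for any of the 19, against 5.08% of all genes. Without control 2 the median was -0.04 and 8 members were higher.

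The 3 members with the smallest p did not move the same way. LYN, a Src family kinase that is abundant in blood cells, had signals of 611, 245, 395 and 382 in controls and of 949, 409, 817 and 1600 in affected dogs, and differed by 1.12 ± 0.42 (log2, SE, adjusted p = 0.582 in limma). Affected 2 fell among the controls. CHN1, a brake on Rac that acts downstream of Eph receptors in growing axons, had signals of 2699, 954, 2712 and 2254 in controls and of 1005, 1170, 1473 and 764 in affected dogs, and differed by -0.89 ± 0.37 (log2, SE, adjusted p = 0.614 in limma). Only control 2 lay in the range of the affected dogs, and without that dog CHN1 differed by -1.25. Its other 2 probe sets differed by -0.93 ± 0.45 and -0.37 ± 0.31 (log2, SE). SIPA1L1, a Rap inhibitor that EphA receptors engage at synapses, had signals of 428, 150, 379 and 287 in controls and of 618, 553, 408 and 467 in affected dogs. It differed by 0.80 ± 0.34 (log2, SE, adjusted p = 0.617 in limma), and by 0.49 without control 2, while a dimmer probe set of the gene differed by 1.56 ± 0.51 (log2, SE). ADAM10, the protease that cuts ephrin-A ligands when EphA receptors bind them, differed by -0.23 ± 0.29 (log2, SE), and RAC1 by -0.12 ± 0.35 (log2, SE). Both were chosen for their role after their values were seen.

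Genes that build the endocardial cushions and the embryonic valves formed the other list, with 63 genes, 23 named and 21 tested. Of the 21, 15 were higher and 6 lower in affected dogs, the median difference was 0.27 (log2), and 0 passed limma over all probe sets. Over all 5438 genes 49.5% were higher. An unadjusted p under 0.05 was reached by 3 of the 21, all higher, against 8.72% of all genes. The groups separated for 3 of the 21, again all higher, against 5.08% of all genes, and these were BMP6, ENG and FN1. The median was 0.41 without affected 4 and 0.16 without affected 2.

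BMP6, a bone morphogenetic protein made in the cushions, had signals of 992, 461, 1493 and 1292 in controls and of 8524, 4011, 3204 and 1968 in affected dogs. It differed by 1.98 ± 0.48 (log2, SE, adjusted p = 0.366 in limma), so its difference was of the size of that of EPHA3, but with the Lhasa apso in place of the Dachshund as the highest dog. ENG, a TGF-beta co-receptor of endothelial cells, had signals of 2921, 1270, 3594 and 2532 in controls and of 8961, 4974, 4383 and 5882 in affected dogs, and differed by 1.27 ± 0.35 (log2, SE, adjusted p = 0.442 in limma). EDN1, the endothelial peptide endothelin, ran from 400 to 1084 in controls and from 885 to 2697 in affected dogs, with overlap, and differed by 1.23 ± 0.44 (log2, SE, adjusted p = 0.561 in limma). Its other 2 probe sets differed by 0.82 ± 0.41 and 0.93 ± 0.47 (log2, SE). FN1, the matrix protein fibronectin, is named here after its values were seen. It had signals of 15854, 3606, 17491 and 16373 in controls and of 25613, 28369, 17958 and 18884 in affected dogs, with the groups only just apart. Its log2 difference was 0.98 ± 0.47 (SE, adjusted p = 0.658 in limma), and 0.43 without control 2. The other 4 probe sets of FN1 differed by 1.98 ± 0.69, 1.24 ± 0.83, 1.66 ± 0.90 and 1.06 ± 0.87 (log2, SE), and in 3 of these 4 the groups overlapped.

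**Figure D3:**
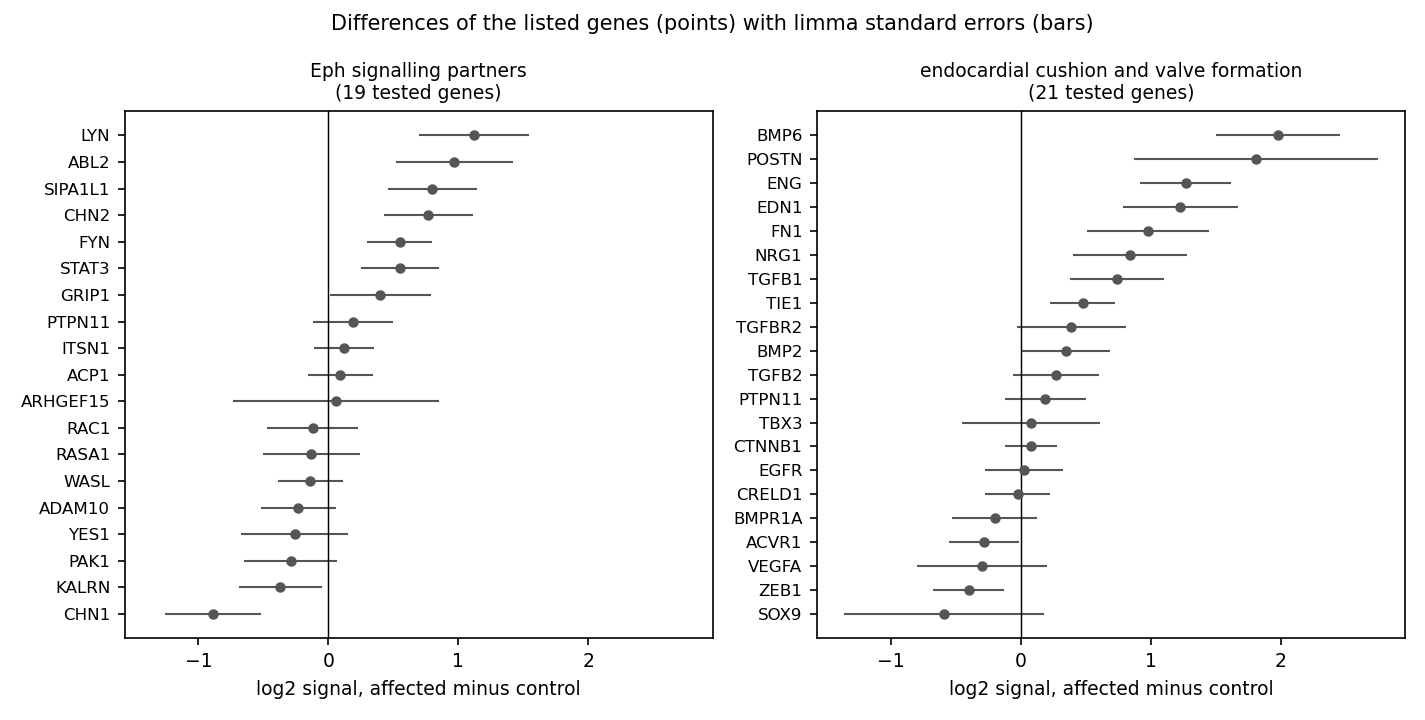
Log2 difference between affected and control dogs (horizontal axis, points) with the limma standard error (bars) for the 19 tested Eph signalling genes and the 21 tested cushion and valve genes. The first list lies on both sides of 0, from CHN1 at -0.89 to LYN at 1.12, and 15 of the 21 genes of the second lie above 0, up to BMP6 at 1.98.

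The genes whose signals ran closest to those of EPHA3 over the 8 dogs included genes of white blood cells. Likeness was the root mean square difference in log2 signal between a gene and EPHA3 after each was centred on its own mean over the dogs, and 5437 genes were compared. A gene with no variation at all would have scored 0.956, and the median gene scored 1.023. The nearest was MPEG1, a pore-forming protein of macrophages, at 0.363, followed by ITGB2, the beta chain shared by leukocyte integrins, at 0.389. ACSL5, which activates fatty acids, scored 0.443, RGS2, a brake on G protein signalling, 0.444, and XDH, the enzyme that makes uric acid, 0.446. In all 5 the affected dogs lay above the controls, which follows from how they were found, and control 2 was the lowest dog, as it was for EPHA3.

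MPEG1 had signals of 400, 136, 152 and 237 in controls and of 540, 490, 483 and 478 in affected dogs. As for EPHA3, control 1 was the highest control and control 2 the lowest, while its affected dogs were almost level. ITGB2 had signals of 409, 151, 210 and 307 in controls and of 768, 575, 670 and 919 in affected dogs, and here affected 4 was highest, the dog that was lowest of its group for EPHA3. This list of 5 was not stable: when 1 dog was left out, between 1 and 3 of the 5 genes were still among the nearest 5. Only 1 was kept without control 2, without control 3 or without affected 1. After quantile normalization 2 were kept.

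When each group was centred on its own mean, which removes the difference between the groups, other genes came closest. They were ISYNA1, an enzyme of inositol synthesis, at 0.181, the interferon-induced OAS2 at 0.184, WASHC2C, a part of the endosomal WASH complex, at 0.185, TTC39C at 0.202 and ZC3H10 at 0.204. A flat gene would have scored 0.402 and the median gene 0.532. All 5 were high in control 1, low in control 2 and low in affected 4, like EPHA3, but their groups overlapped, with log2 differences from -0.10 in TTC39C to 0.33 in ZC3H10. This list was not stable either, since between 0 and 3 of the 5 genes were found again when a dog was left out. It was 0 without control 1, without control 2 and without affected 4.

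**Figure D4:**
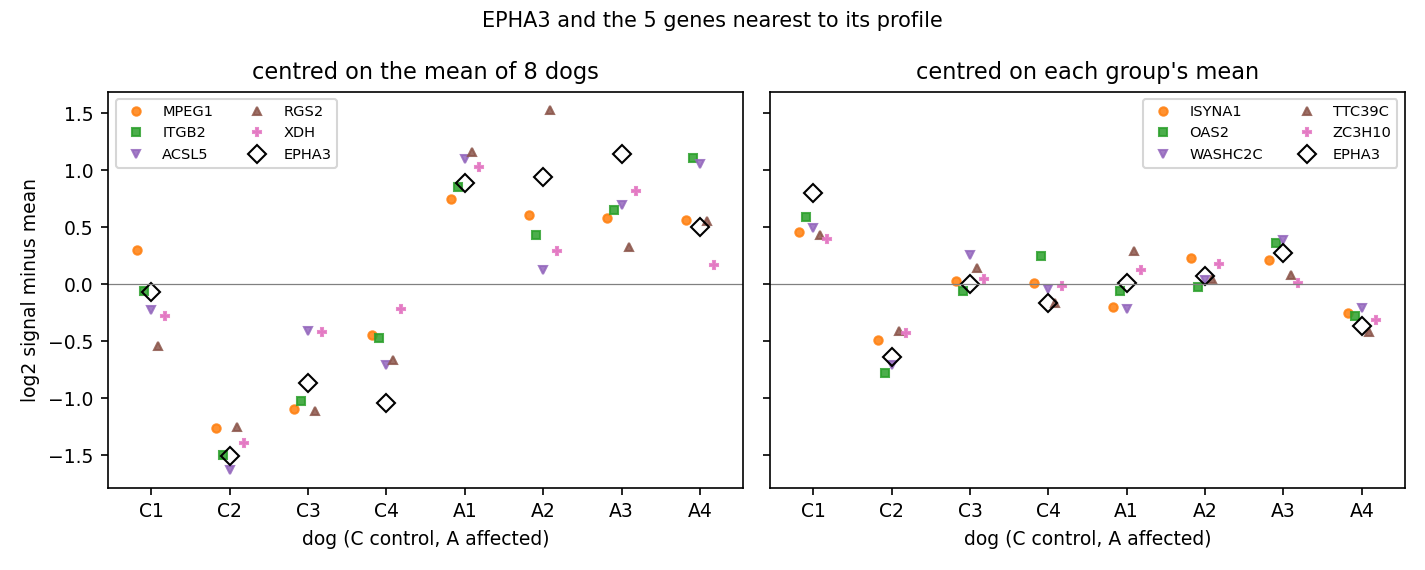
Log2 signal minus its mean (vertical axis) in each dog for EPHA3 (open diamonds) and the 5 genes nearest to it (filled symbols), centred over all 8 dogs on the left and within each group on the right. On the left every gene is lowest in control 2, and on the right the genes follow EPHA3 within groups without sharing its difference between them.

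The summed signals of markers of 3 other cell types lay apart in the 2 groups of leaflets, although no single marker passed limma over all probe sets. Of 14 macrophage and monocyte markers 12 were tested. MARCO, a scavenger receptor at the floor in all 4 controls, and FCER1G, a signalling chain of Fc receptors at the floor in 3 of them, passed the filter only through affected dogs, which fixed their direction. The other 10 all had higher means in affected dogs, with a median difference of 1.89 (log2), and 6 of them had an unadjusted p under 0.05, against 8.72% of all genes. Over all 12, with MARCO and FCER1G included, the median was 2.02, and 1.26 without control 2. The summed signal of the 12 ran from 1219 to 16167 in controls and from 18235 to 41128 in affected dogs, without overlap. MARCO and FCER1G are part of this sum, with at most 1295 and 437 in an affected dog. A sum of the other 10 was not made, so whether it separates the groups is not shown. Among the controls the sum of the 12 was 16167 in control 1, 1219 in control 2, 6999 in control 3 and 9712 in control 4. Control 1 was thus the highest control and control 2 the lowest, as for EPHA3. In summed signal the same held for the Eph signalling genes, the endothelial markers and the mast cell marker, and not for the other lists. Among the affected dogs the macrophage and monocyte sum was 41128, 18256, 27570 and 18235 in affected 1 to 4, with affected 2 and affected 4 level. By the mean log2 signal of the same markers affected 2 was the lowest of the group, at 9.58, and affected 4 was at 10.10, so the affected dogs were not ordered as for EPHA3.

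Of 13 endothelial markers 7 were tested and all 7 had higher means in affected dogs. ENG and TIE1 were also members of the cushion and valve list, so those lists share values. Their median difference was 0.99 (log2), and 0 passed limma over all probe sets, with 4 of the 7 at an unadjusted p under 0.05, against 8.72% of all genes. Their summed signal ran from 8590 to 12111 in controls and from 16246 to 28426 in affected dogs, again without overlap. Adipocyte markers were the reverse in summed signal, which ran from 2916 to 14578 in controls and from 861 to 1671 in affected dogs. Of the 5 tested, 4 had lower means, and 1, LPL, had an unadjusted p under 0.05, against 8.72% of all genes. LPL, from 942 to 2559 in controls and from 341 to 900 in affected dogs, was the only member whose groups did not overlap. Over all genes that share was 5.08%. A sum without LPL was not made, so whether the other adipocyte markers lie apart is not shown. By mean log2 signal the adipocyte groups were not apart: control 2 and affected 3 were both at 7.2, and affected 4 was at 7.75. The part of these cell types in the EPHA3 difference was not tested.

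Other lists overlapped between the groups. Valve interstitial and fibroblast markers, of which 5 of 7 had higher means, ran from 43038 to 115445 in controls and from 90124 to 130853 in affected dogs (summed signal). Myofibroblast and smooth muscle markers, with 6 of 7 higher, ran from 22834 to 64395 and from 24380 to 70737. Lymphocyte markers, with 3 of 4 higher, ran from 893 to 1596 and from 1153 to 1556. The single tested mast cell marker, MS4A2, ran from 117 to 165 and from 122 to 389, and the 5 tested Schwann cell and neuron markers, 3 of them higher, from 3188 to 6311 and from 4162 to 5073. NEFM, a neurofilament gene of that list, was at the floor in every dog, and none of the 7 listed erythroid genes was among the named probe sets. Heart muscle markers, with 12 of 13 lower, ran from 54933 to 272491 and from 27424 to 214310. By dog the heart muscle sums were 89466, 272491, 54933 and 133232 in controls 1 to 4. In affected 1 to 4 they were 108544, 214310, 27424 and 98195. Control 2 was the highest dog for heart muscle and the lowest for EPHA3, at 113. Affected 3 was the lowest for heart muscle and the highest for EPHA3, at 710. The dogs between them did not keep that reverse order: affected 2, next highest for heart muscle, had an EPHA3 signal of 616. A relation of heart muscle to EPHA3 was not tested.

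The measured genes near EPHA3 on its chromosome had differences smaller than their standard errors. In RefSeq genes of the UU_Cfam_GSD_1.0 dog assembly, 9 protein-coding genes lie within 6 places of it, 3 on the side towards the start of the chromosome and 6 on the other, and 2 of them were named and tested. These were chosen by position after the values of EPHA3 were known. PROS1, the anticoagulant protein S, differed by -0.23 ± 0.59 (log2, SE, adjusted p = 0.935 in limma) and by -0.89 without control 2, which was far below the other controls. NSUN3, which modifies a mitochondrial transfer RNA, differed by -0.09 ± 0.31 (log2, SE, adjusted p = 0.952 in limma). Groups overlapped for both genes, and no coordinates are given because the array annotation names no genome build.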

How the data were processed

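The values deposited by the authors are linear intensities, 1 per probe set, computed by MAS5 according to the submitters' processing notes, with version and detection calls not stated in the sources used here. The trimmed mean (2% off each end) was 500.1 on every array, which shows an earlier scaling to that level. Gene names came from the platform annotation, which gave 1 symbol for 10549 of 23913 rows, several for 138 and none for 13226. The annotation is the only evidence here that the EPHA3 probe set measures EPHA3, and the probe sequences were not used here.

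Signals were scaled, floored at their 20th percentile (34.2) and put on the log2 scale. Tested probe sets exceeded the array's 40th percentile on at least 4 of 8 arrays. Groups were compared with limma 3.58.1 in R 4.3.3 (lmFit, eBayes with an intensity trend, two-sided, Benjamini-Hochberg over 14705 probe sets, threshold 0.05). In simulated data with 4 dogs per group it called 0% of planted log2 changes of 1, 63.6% of those of 2 and 95.5% of those of 4. The planted changes of a run were all of 1 size, and the noise was normal, independent between probe sets and equally wide in both groups. No dog was made to stand apart as control 2 did, so these shares hold for that setting only. The absence of a call therefore does not show the absence of a change of 1 or 2. Lists use the brightest probe set of a gene. The text names all Eph genes and the 3 genes with the smallest p in the Eph signalling and cushion lists. It also names the 5 genes nearest to EPHA3 by each centring. Marker genes describe the cell types in the leaflets, and other exceptions are stated. EPHA3 and the lists were chosen with earlier results of these data known. Besides breed, the labels say of the dogs only that they are biological replicates. Their numbers were not found to pair them (correlations of same-numbered dogs' deviations from -0.12 to 0.41). Alternatives covered normalization, filter, floor, variance model, array weights, a replicate block and leaving out each dog.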

Additional observations from a re-analysis of the deposited data

Results flagged for a closer look

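In 47 group profiles of named probe sets, 3 held a dog set apart from the other 3 of its group, and about 1 in 20 such groups is marked by chance. FN1 in control 2 had a log2 signal of 11.82, with the other controls from 13.95 to 14.09. PROS1 in control 2 was at 9.15, with the other controls from 11.65 to 12.06. EPHB1 in control 3 was at 5.76, just above the floor of 5.10 at which the other 3 controls lay. EPHA3 was not among them.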

How the results depend on the processing

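The EPHA3 difference lay between 1.60 and 1.73 over 11 other settings and between 1.52 and 2.00 with each dog left out. Of those settings only quantile normalization, median centring, the pseudocount and array weights moved it. The others left it at 1.73, since they hardly alter the group means of EPHA3. The count of probe sets past the threshold was 0 throughout, except 4 with the replicate block (UPP1, SAA1, S100P and an unnamed one) and 0 to 1 with a dog left out (the unnamed one again, without control 1). The cause was not tested. With the replicate block no Eph receptor was called, and 1 of 4 control dogs correlated best with the affected dog of its own number. The other Eph receptors had no call under any setting tested, but with a dog left out EPHA4 ranged from -0.38 to 0.08 and the EPHB6 probe sets from -1.01 to 0.18 and from -0.34 to 0.21, the last over 4 of 8 omissions, since in the others it was too dim to test. Leaving out a dog also turned ISYNA1 (-0.18 to 0.13), NSUN3 (-0.23 to 0.11), OAS2 (-0.05 to 0.41), PROS1 (-0.89 to 0.07), TTC39C (-0.24 to 0.04) and WASHC2C (-0.25 to 0.14), and array weights put OAS2 at -0.06 and FN1 at 0.55. Probe sets whose groups did not overlap made up 5.98% to 13.0% of those tested with a dog left out, and 3.43% to 5.43% otherwise. The stricter filter left no value for EPHA3.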
